A study of Homo sapiens with 6 samples.

Results

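Fibronectin and the matricellular proteins were examined through 10 genes: FN1, TGFBI, SPARC, THBS1, THBS2, TNC, POSTN, CTHRC1, HTRA1 and SPP1. They were taken by gene symbol, and the 10 are all present among the 21293 genes of the deposited table. The RNA came from H2087-LCC cells, a dormant metastatic derivative of the human lung adenocarcinoma (LUAD) cell line H2087, and was measured by RNA-seq; each library is of this single derivative. The cells were given SB505124 (SB), which blocks the TGFβ type I receptor and lowers the signaling the cells generate themselves, for 3 days, or TGFβ for 3 days or for 7 days. Each of the 3 groups has 2 libraries. The study describes the libraries of a group as technical replicates, so the p-values given here measure only the technical spread between libraries and not the variation between separate cultures. No library came from cells given neither SB nor TGFβ. A difference from SB therefore joins the effect of the receptor block and that of added TGFβ, which cannot be told apart. SB was given for 3 days only, so at 7 days the effect of TGFβ and of the longer culture cannot be told apart.

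Fibronectin is the large dimeric glycoprotein that cells assemble into fibrils through integrin α5β1, and those fibrils serve as a scaffold for collagen and for latent TGFβ. Matricellular proteins are secreted into the matrix but act mostly as regulators: they bind collagen, growth factors, proteases and cell surface receptors. TGFβ is a classical inducer of many of them, and fibronectin is a standard marker of the mesenchymal state reached through an epithelial–mesenchymal transition (EMT). In tumors these proteins are made by fibroblasts as well as by cancer cells. In a monoculture, a change in bulk RNA cannot tell apart more RNA in each cell from more cells that express the gene.

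The deposited values are read counts normalized by library size and rounded to whole numbers, here called normalized counts. They summed to between 34306283 and 36340734 per library, from an estimated 32000000 to 40000000 assigned reads, so that 1 read was worth between 0.896 and 1.10 normalized counts. Of the lung epithelial markers, 7 of 7 were above 0 in each library, and their summed normalized count was 104754 to 115315 in SB, 98881 to 111171 at 3 days of TGFβ and 89134 to 102045 at 7 days. By the test given below, 4 of these markers were lower than SB at 7 days, 1 was higher and 2 did not pass. CDH1 had fallen to 10 and 9 at 7 days, whereas KRT8 was at 42692 and 36786. On the log2 scale, EPCAM was at -1.62, NKX2-1 at -1.73 and KRT7 at 1.06 relative to SB. The keratin genes held most of the sum. Fibroblast markers were nearly absent apart from COL1A1: COL1A2, COL3A1, DCN and LUM stood between 0 and 5 in each library, PDGFRA between 8 and 16, and the sum over the 6 genes was 210 to 260 in SB and 466 to 599 at 7 days, with COL1A1 supplying nearly all of it; the defining fibroblast genes DCN, LUM and COL3A1 were at 0 or 1 throughout. The sum over the 4 endothelial markers was 160 to 294 in SB, 93 to 109 at 3 days and 109 to 132 at 7 days. KDR stood at 98 and 225 in SB, 26 and 31 at 3 days, and 70 and 53 at 7 days. PECAM1 went the other way, from 41 and 36 in SB to 61 and 67 at 3 days and 56 and 53 at 7 days. CDH5 and VWF stood between 0 and 20. Of the 4 immune markers, CD68 (4368 to 5113) made up nearly the whole sum of 4376 to 5119, while PTPRC, CD3E and CD14 stood between 0 and 8.

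To show where transcription of these genes starts, the 250 bases before the RefSeq start site (GRCh38.p14) are given for FN1 and TGFBI, the most abundant members after TGFβ, for THBS1 and HTRA1, which had the largest rises at 3 days and 7 days, and for TNC, which fell. RefSeq promoters were matched for 9 of the 10 genes, all but CTHRC1. The 4 short motifs given next were searched on both strands, namely the SMAD box CAGAC, the AP-1 motif TGANTCA, the TEAD motif GGAATG and the cAMP response element TGACGTCA. Capitals mark the matches, and no match overlapped another.
FN1: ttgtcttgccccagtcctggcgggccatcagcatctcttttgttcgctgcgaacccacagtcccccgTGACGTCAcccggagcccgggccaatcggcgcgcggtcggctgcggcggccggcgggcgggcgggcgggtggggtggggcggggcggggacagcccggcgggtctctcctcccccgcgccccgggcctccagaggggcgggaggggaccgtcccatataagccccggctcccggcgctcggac
TGFBI: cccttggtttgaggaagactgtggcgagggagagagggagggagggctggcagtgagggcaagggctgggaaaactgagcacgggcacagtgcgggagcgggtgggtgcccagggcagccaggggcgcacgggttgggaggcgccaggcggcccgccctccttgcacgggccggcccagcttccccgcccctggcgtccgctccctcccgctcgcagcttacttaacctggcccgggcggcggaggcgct
THBS1: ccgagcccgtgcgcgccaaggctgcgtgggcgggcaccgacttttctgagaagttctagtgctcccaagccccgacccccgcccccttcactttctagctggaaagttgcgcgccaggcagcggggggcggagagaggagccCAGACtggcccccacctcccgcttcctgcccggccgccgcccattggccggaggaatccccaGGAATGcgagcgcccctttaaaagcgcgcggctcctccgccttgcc
HTRA1: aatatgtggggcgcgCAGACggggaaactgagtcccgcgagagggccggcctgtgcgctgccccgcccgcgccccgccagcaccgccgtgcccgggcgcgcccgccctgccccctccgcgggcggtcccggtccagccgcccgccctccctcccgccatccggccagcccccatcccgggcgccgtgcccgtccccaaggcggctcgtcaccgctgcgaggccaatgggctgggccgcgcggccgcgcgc
TNC: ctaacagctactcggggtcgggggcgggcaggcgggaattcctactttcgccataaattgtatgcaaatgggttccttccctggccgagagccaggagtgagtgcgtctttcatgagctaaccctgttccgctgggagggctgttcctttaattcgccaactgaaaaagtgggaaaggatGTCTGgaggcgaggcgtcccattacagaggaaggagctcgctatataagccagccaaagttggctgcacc
These windows lie at chr2:215436069-215436318, minus strand (FN1); chr5:136028738-136028987, plus strand (TGFBI); chr15:39580829-39581078, plus strand (THBS1); chr10:122461303-122461552, plus strand (HTRA1) and chr9:115118158-115118407, minus strand (TNC). FN1 held a complete cAMP response element from -183 to -176, counted back from the start site. THBS1 held a SMAD box from -108 to -104 and a TEAD motif from -46 to -41. The SMAD box of HTRA1 lay from -235 to -231, and that of TNC, the gene that fell, from -70 to -66. TGFBI held none of the 4 motifs in this window. A SMAD box was found in 6 of the 9 members with a promoter, against 38.0% of the 35116 promoters in the reference. TEAD motifs were found in 3 of the 9 (11.9% of all), AP-1 motifs in POSTN only among the 9 (6.57% of all) and the cAMP response element in FN1 only among the 9 (1.65% of all). These matches describe the letters of the window and do not show binding. The share of G and C was 81.2% in the window of HTRA1, 76.4% in FN1, 72.8% in TGFBI and 69.6% in THBS1, against a mean of 57.2% over all promoters. It was 60.0% in THBS2, 59.2% in SPARC, 54.8% in TNC, 44.8% in SPP1 and 36.4% in POSTN.

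At 3 days, TGFβ-treated cells had more RNA of 7 of the 10 genes than SB cells (FN1, TGFBI, SPARC, THBS1, CTHRC1, HTRA1 and SPP1), TNC was lower, THBS2 did not pass the test and POSTN was too low to be tested. Over all 14395 genes tested, 14.9% were higher and 14.0% lower, 29.0% in all. After 7 days, 8 of the 10 were higher than in SB and TNC was lower, against 27.7% higher and 26.9% lower over all genes (54.5% in all). Between 7 days and 3 days, FN1, TGFBI, SPARC, CTHRC1 and HTRA1 rose further and TNC fell further, whereas THBS1, THBS2 and SPP1 did not pass the test; over all genes 17.0% were higher and 16.2% lower (33.2% in all). The median log2 difference (the log2 fold change) of the 9 genes tested was 1.10, 2.98 and 0.87 in the 3 comparisons, against -0.02, -0.0008 and 0.02 over all genes. The medians of 1.10 and 0.87 were the values of THBS2 itself, a gene with low counts that did not pass in those comparisons. FN1, TGFBI, SPARC, CTHRC1 and HTRA1 were among the mesenchymal genes that the study chose for display on these libraries. FN1, TGFBI, SPARC, CTHRC1 and THBS1 are in an EMT signature that it used. The direction of all these genes is therefore not independent evidence. The study also tested a hallmark EMT signature on its RNA-seq of TGFβ-treated H2087-LCC cells. Which of the 10 genes that set holds is not given here, so the others may not be independent of it either. Calls are from limma on log2(normalized count + 1) over genes averaging 10 or more, at a Benjamini-Hochberg adjusted p of 0.05. An exact permutation test of a single gene, 2 libraries against 2, could not reach this threshold.

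**Figure D1:**
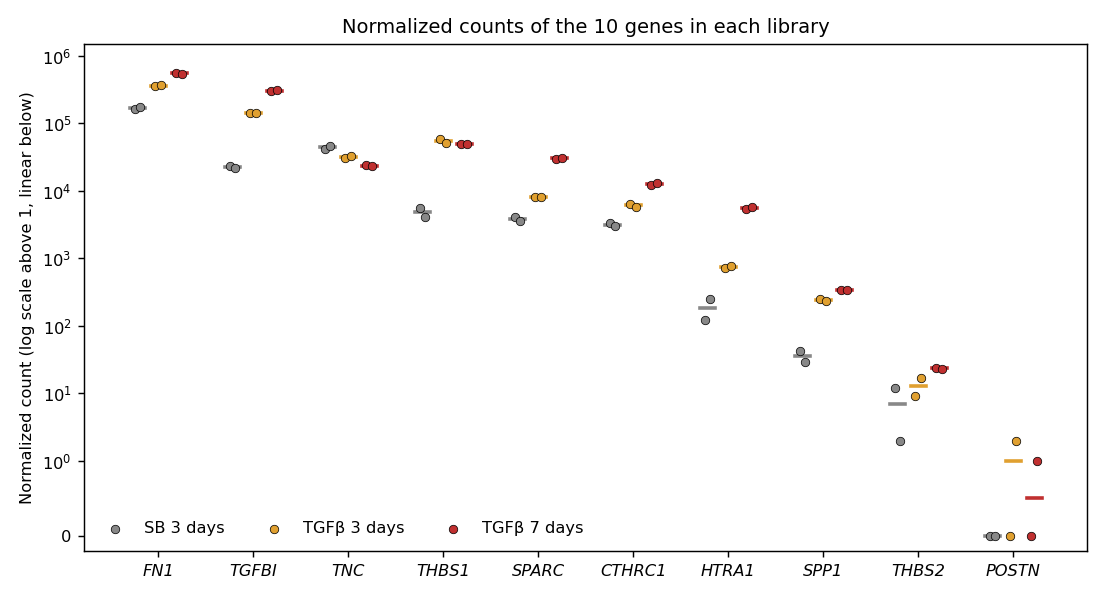
Normalized counts (y axis, logarithmic above 1) of the 10 genes in each of the 6 libraries (points), with the mean of each group as a bar. TNC descends from SB (grey) to 7 days (red), POSTN stays between 0 and 2, and the points of the other 8 genes are higher at 7 days than in SB.

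FN1 encodes fibronectin and lies on chromosome 2 of GRCh37 from 216225163 to 216300796, on the minus strand. Its normalized count was 162290 and 175381 in the SB libraries, 358867 and 364251 at 3 days of TGFβ, and 558569 and 545523 at 7 days. The 3 groups did not overlap, and libraries of a group differed by at most 1.08-fold. From this already high level in SB, FN1 was 1.10 higher on the log2 scale at 3 days of TGFβ (standard error 0.08, limma, adjusted p = 1.61e-06). At 7 days it was 1.71 higher than in SB (limma, adjusted p = 1.77e-08). FN1 supplied 0.461% and 0.511% of all normalized counts in SB, and 1.56% and 1.52% at 7 days. Per kilobase of transcript, it ranked 91 and 77 in the SB libraries and 10 and 11 in the 7-day libraries, among the 17511 genes with a transcript length.

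TGFBI encodes a secreted protein with fasciclin domains that binds collagen and integrins, and it lies on chromosome 5 from 135364677 to 135399507. It stood at 23141 and 21758 normalized counts in SB, 142753 and 144378 at 3 days, and 303620 and 307204 at 7 days. The groups were far apart, while libraries of a group differed by at most 1.06-fold. The mean rose 6.4-fold at 3 days (log2 difference 2.68, adjusted p = 8.83e-10) and 13.6-fold at 7 days (3.77, adjusted p = 1.72e-11). From 3 days to 7 days the log2 difference was 1.09 (95% interval 0.92 to 1.26), larger than that of FN1, at 0.61 (0.43 to 0.79); the difference between the genes was not tested. Per kilobase of canonical transcript, TGFBI ranked 3 and 2 in the 7-day libraries, after 237 and 232 in SB, among the 17511 genes with a transcript length.

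POSTN encodes periostin, the closest relative of TGFBI with the same domain type and a typical product of activated fibroblasts. It was listed at 0 in both SB libraries, at 0 and 2 at 3 days, and at 0 and 1 at 7 days. A count of 0 allows up to 3 reads, or 2.69 to 3.30 normalized counts depending on the library, so the levels listed in the 3 groups could not be told apart at this depth. Per kilobase, the 2 fasciclin genes stood at opposite ends of the 10 members at 7 days.

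SPARC encodes osteonectin, a collagen-binding calcium-dependent glycoprotein, and lies on chromosome 5 from 151040657 to 151066536. In normalized counts, it stood at 4070 and 3616 in SB, 8226 and 8035 at 3 days, and 29826 and 30749 at 7 days. Most of the rise came after 3 days: the log2 difference was 1.08 from SB to 3 days (standard error 0.08, adjusted p = 1.74e-06) and 1.90 from 3 days to 7 days (standard error 0.08, adjusted p = 1.69e-07). The groups did not overlap.

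CTHRC1 encodes collagen triple helix repeat containing 1, a secreted protein found where tissue is remodeled. It stood at 3331 and 3018 in SB, 6312 and 5837 at 3 days, and 12209 and 12913 at 7 days. Its mean was 1.91-fold higher than SB at 3 days and 3.96-fold higher at 7 days. The log2 difference was 0.94 at 3 days (adjusted p = 8.45e-06), and a further 1.05 was added by 7 days (adjusted p = 1.44e-05), so the steps were of like size.

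HTRA1 encodes a secreted serine protease that cleaves matrix proteins, fibronectin among them, and lies on chromosome 10 from 124218067 to 124274423. In normalized counts, it stood at 121 and 249 in SB, 727 and 769 at 3 days, and 5449 and 5864 at 7 days. The SB libraries differed 2.06-fold, more than for any other member with a mean over 100, yet both lay well under the 3-day libraries. HTRA1 had the largest change of the members at 7 days, a log2 difference of 5.02 (95% interval 4.49 to 5.54, adjusted p = 1.44e-08), or 30.6-fold on the means. Without the first SB library it was 4.50, and without the second 5.53. Between 3 days and 7 days alone the mean rose 7.56-fold, and per kilobase its 7-day libraries then overlapped those of TNC.

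THBS1 encodes thrombospondin 1, which binds latent TGFβ and can activate it, and lies on chromosome 15 from 39873280 to 39891667. It stood at 5543 and 4052 in SB, 58242 and 51318 at 3 days, and 48951 and 49270 at 7 days. THBS1 had thus reached its higher level by 3 days, with the largest early rise of the members (log2 difference 3.53, standard error 0.12, adjusted p = 2.90e-09). At 7 days its log2 difference relative to SB was 3.37 (adjusted p = 1.63e-09). Both 7-day libraries lay under both 3-day libraries, but the difference of -0.15 on the log2 scale (95% interval -0.43 to 0.12) did not pass the test (adjusted p = 0.367). FSIP1, on the opposite strand, shares 448 exonic bases with THBS1 in the annotation, and reads from there could not be told apart without strand. THBS1-AS1 shares 411 such bases. Opposite-strand transcripts also share 129 to 196 exonic bases with TNC, HTRA1, SPARC and SPP1.

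THBS2, the closest relative of THBS1, was expressed near the limit of detection. It was listed at 12 and 2 in SB, 9 and 17 at 3 days, and 24 and 23 at 7 days. SB and 3 days overlapped, with a log2 difference of 1.10 and a 95% interval from -0.22 to 2.43 (adjusted p = 0.199). It was 2.16 (adjusted p = 0.00955) without the first SB library and 0.05 without the second; over the alternatives the adjusted p ranged from 0.00955 to 0.952. At 7 days its log2 difference of 1.97 relative to SB passed the test (adjusted p = 0.0161), but that call was lost without the second SB library (0.91, adjusted p = 0.107), without either 7-day library (adjusted p = 0.0610 and 0.0576), without the filter on low values (0.0940) and without the trend in limma (0.0621). The adjusted p ranged from 0.000874 to 0.107 over the alternatives. THBS2-AS1, on the opposite strand, shares 2249 exonic bases with THBS2 in the annotation. Reads from there could not be told apart without strand, and their part in these low counts was not tested. At 7 days THBS1 stood at 6305 ± 29.0 (SD, n = 2) normalized counts per kilobase and THBS2 at 4.12 ± 0.124.

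TNC encodes tenascin C, a hexameric glycoprotein that modulates adhesion to fibronectin, and lies on chromosome 9 from 117781854 to 117880486. It was the only member that fell: 41564 and 46401 normalized counts in SB, 30421 and 32735 at 3 days, and 24503 and 23029 at 7 days. The groups did not overlap. Against SB, its log2 difference was -0.48 at 3 days (95% interval -0.66 to -0.29, adjusted p = 0.00133) and -0.89 at 7 days (-1.07 to -0.70, adjusted p = 5.01e-06). The fall from 3 days to 7 days, -0.41, passed the test (adjusted p = 0.00396) but not without the second 7-day library (-0.37, adjusted p = 0.0657; the alternatives gave 0.00101 to 0.0657). TNC remained an abundant transcript: the 7-day mean of 23766 normalized counts was 0.540 of the SB mean.

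SPP1 encodes osteopontin, an acidic phosphoprotein that binds integrins and CD44, and lies on chromosome 4 from 88896819 to 88904684. In normalized counts, it stood at 43 and 29 in SB, 252 and 234 at 3 days, and 346 and 345 at 7 days. The rise was steep but from a low base, 6.75-fold on the means at 3 days (log2 difference 2.75, adjusted p = 1.22e-06) and 9.60-fold at 7 days (3.25, adjusted p = 1.21e-07). The step from 3 days to 7 days was 0.51 (95% interval 0.06 to 0.95) and did not pass the test (adjusted p = 0.0744). It passed without the first SB library (adjusted p = 0.0194), without the second (0.0177) and with only the 4 libraries compared (0.0103), the alternatives spanning 0.0103 to 0.245.

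**Figure D2:**
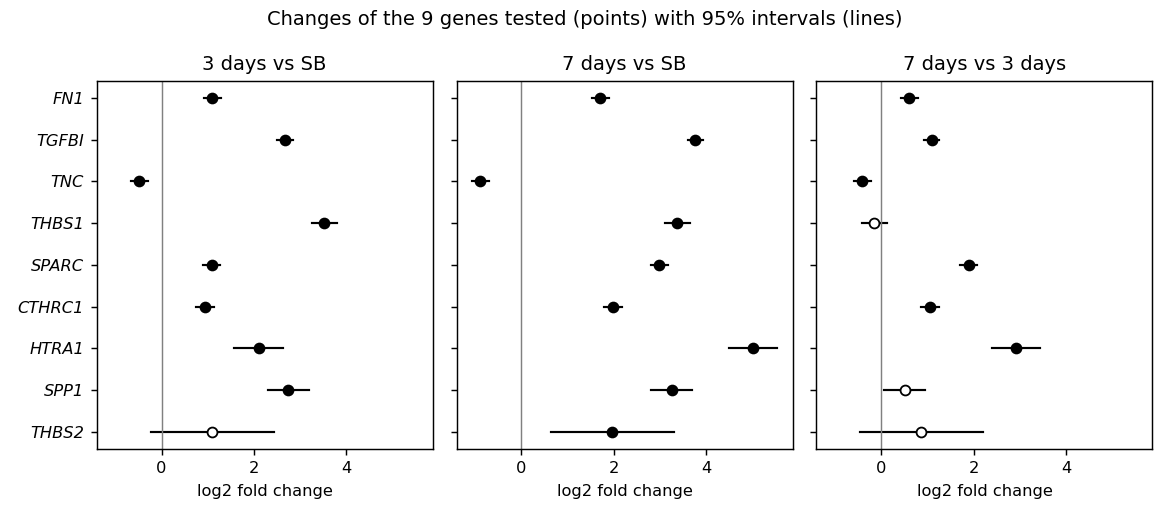
Log2 fold changes (points) with 95% intervals from limma (lines) of the 9 genes tested in the 3 comparisons. Filled points passed an adjusted p of 0.05, and open points (THBS2 at 3 days; THBS1, SPP1 and THBS2 between 7 days and 3 days) did not.

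The members differed in when they changed. As a description on the log2 scale, the share of the 7-day difference from SB already present at 3 days was 36.3% for SPARC, 41.9% for HTRA1, 47.2% for CTHRC1, 64.3% for FN1, 71.1% for TGFBI, 84.4% for SPP1 and 105% for THBS1. For TNC, whose change was downward, it was 53.8%, and for THBS2, near the limit of detection, it was 56.0%. With all 6 libraries, the shares thus ran from SPARC and HTRA1, with the latest changes, to THBS1, with the earliest. CTHRC1 and TNC changed by like amounts before and after 3 days. The place of HTRA1 beside SPARC and CTHRC1 depended on single SB libraries. Without the first, the differences at 3 days and 7 days were 1.17 and 3.07 for SPARC, and 1.58 and 4.50 for HTRA1. HTRA1 then had the smaller share. Without the second, they were 2.62 and 5.53 for HTRA1, and 0.87 and 1.91 for CTHRC1. HTRA1 then had a larger share than CTHRC1. Both differences use the same SB libraries, so the shares are not independent of them.

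**Figure D3:**
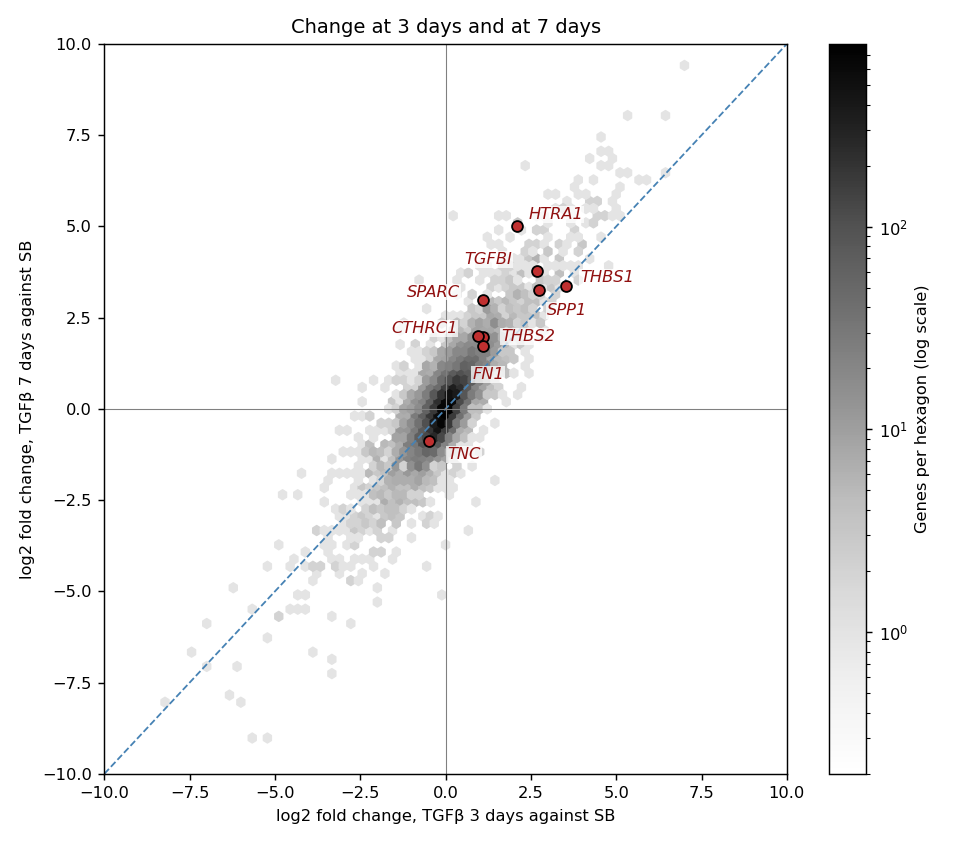
Log2 fold change relative to SB after 3 days (x axis) and 7 days (y axis) of TGFβ for all 14395 genes tested (grey hexagons, shaded by number of genes) and the 9 members tested (red). The dashed line marks equal change at both times, and both axes share the SB libraries; THBS1 lies just under the line, and HTRA1 (2.10 and 5.02) and SPARC (1.08 and 2.98) lie farthest above it among the members.

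The order of the levels also changed. Levels were compared between genes as normalized counts per kilobase of the canonical transcript, so that long transcripts such as FN1 (8.39 kb) and short ones such as CTHRC1 (1.24 kb) could be set side by side. In SB the order from high to low was FN1 (20123 ± 1103, SD, n = 2), TGFBI (8278 ± 361), TNC (5174 ± 402), CTHRC1 (2560 ± 178), SPARC (1114 ± 93.0), THBS1 (616 ± 135), HTRA1 (88.5 ± 43.3), SPP1 (23.1 ± 6.34), THBS2 and POSTN. At 3 days TGFBI (52937 ± 424) stood above FN1 (43094 ± 454), and THBS1 (7033 ± 629) came next. At 7 days TGFBI (112615 ± 934) and FN1 (65798 ± 1100) were followed by CTHRC1 (10130 ± 401), SPARC (8776 ± 189) and THBS1 (6305 ± 29.0). TNC (2796 ± 123) and HTRA1 (2705 ± 140) were neighbors at 7 days whose libraries overlapped. THBS2 and POSTN were last in each group. With the length of all annotated exons in place of the canonical transcript, TNC stood above TGFBI in SB, FN1 above TGFBI at 3 days and HTRA1 above TNC at 7 days, so these orders depend on the transcript length assumed.

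Together the 10 genes took 0.683% and 0.742% of all normalized counts in the SB libraries, 1.67% and 1.69% at 3 days, and 2.75% and 2.71% at 7 days. FN1 and TGFBI supplied 77.2% and 77.5% of that share in SB and 87.7% and 87.5% at 7 days. That rise came from TGFBI, which supplied 9.64% and 8.55% of the members' counts in SB and 30.9% and 31.5% at 7 days. The part held by FN1 went down over the same interval, from 67.6% and 68.9% to 56.8% and 56.0%, although its own level rose. The part held by TNC went from 17.3% and 18.2% to 2.49% and 2.36%.

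**Figure D4:**
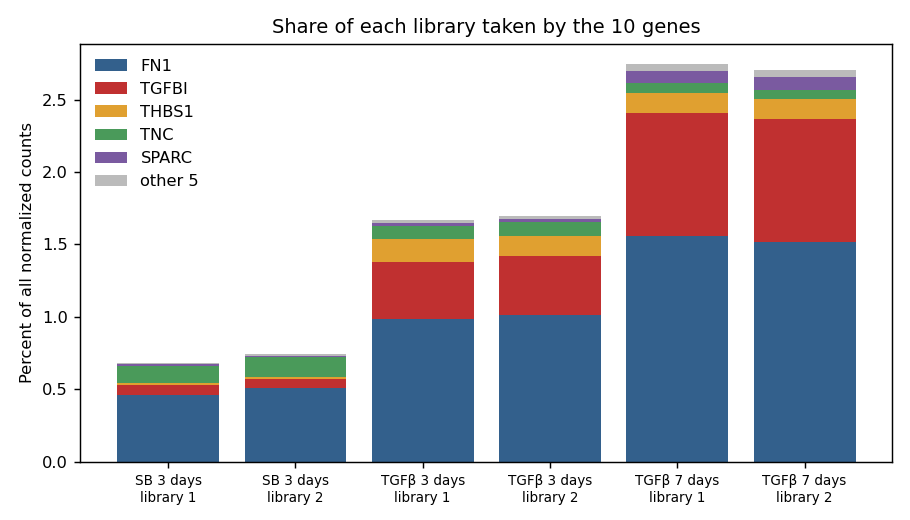
Percent of all normalized counts in each library taken by FN1, TGFBI, THBS1, TNC, SPARC and the other 5 members (stacked bars from 0). The stacks reach 0.683% and 0.742% in SB and 2.75% and 2.71% at 7 days, and the TGFBI segment grows from 0.0658% and 0.0634% to 0.848% and 0.853%.

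Many relatives of the members lay under the filter on low values, and those that were expressed moved in different directions. Beside the counts that follow, 14.9% of all genes tested were higher and 14.0% lower than SB at 3 days. At 7 days these shares were 27.7% and 26.9%. Of the other 7 genes of the SPARC family, 4 were tested; 2 were higher than SB at 3 days and 3 at 7 days. SPOCK1, which encodes the proteoglycan testican 1, stood at 150 and 111 in SB, 11884 and 11075 at 3 days, and 32010 and 34421 at 7 days, with a log2 difference of 8.0 at 7 days (adjusted p = 2.41e-12). FSTL1, a follistatin-like glycoprotein, was 1.59 higher at 7 days (adjusted p = 0.000345) and SPARCL1 0.69 higher (adjusted p = 0.0345), both from fewer than 50 normalized counts in SB. SPOCK1 was thus barely expressed in SB and abundant after TGFβ.

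Of the 6 other thrombospondins and tenascins, only THBS3 and THBS4 reached the filter. THBS3 stood at 301 and 439 in SB, 420 and 447 at 3 days, and 790 and 751 at 7 days (log2 difference 1.08 at 7 days, adjusted p = 0.000174). THBS4 was 0.54 higher at 7 days (adjusted p = 0.0253), and neither gene passed the test at 3 days. COMP was at 0 in each library, TNR and TNN were at 0 or 1, and TNXB was at 4 to 9. TNC was thus the only tenascin gene that passed the filter. Of the 4 other genes of the SPP1 family (the SIBLING glycoproteins), 1 was tested: IBSP, which encodes bone sialoprotein, was 0.87 higher at 7 days (adjusted p = 0.00276). Of the 3 other HTRA genes, HTRA2, a mitochondrial protease, was the only one tested. It was -0.23 at 3 days and -0.28 at 7 days on the log2 scale (adjusted p = 0.187 and 0.0757).

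The CCN family, which holds further matricellular proteins, had 3 tested genes of 6. At 3 days 2 were higher than SB, and at 7 days 1 was higher and 2 were lower. CYR61 (CCN1) was 11080 and 5910 in SB, 15074 and 14686 at 3 days, and 1408 and 1262 at 7 days. CTGF (CCN2) was 3032 and 1724, then 4608 and 3657, then 881 and 751. NOV (CCN3) was 0.54 higher than SB at 7 days (adjusted p = 0.00434). In CYR61 and CTGF the 3-day libraries were the highest and the 7-day libraries the lowest, an order not seen in any of the 10 members.

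Of the 7 fibulins and related genes, 5 were tested; 2 were higher at 3 days, and 3 were higher and 1 lower at 7 days. HMCN1, which encodes hemicentin 1, had a log2 difference of 3.07 at 7 days (adjusted p = 3.81e-08), EFEMP2 (fibulin 4) 1.70 (adjusted p = 0.000594) and FBLN5 (fibulin 5) 1.19 (adjusted p = 0.0153). EFEMP1 (fibulin 3) fell by 1.05 at 7 days (adjusted p = 1.36e-06), from 3680 and 3527 to 1692 and 1792. Of 6 other secreted adhesion glycoproteins, 3 were tested, their adjusted p at 3 days ran from 0.0777 to 0.255, and 3 were higher at 7 days: MFGE8 by 1.30, ECM1 by 1.21 and AEBP1 by 1.04 on the log2 scale (adjusted p = 2.81e-06, 8.42e-07 and 0.0364). VTN, which encodes vitronectin, stood between 0 and 4.

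Several receptors for these matrix proteins were also higher. Of 15 receptor genes, 11 were tested. At 3 days 7 were higher and 1 was lower than SB, and at 7 days 8 were higher. Over all genes tested, 14.9% were higher and 14.0% lower at 3 days, and 27.7% were higher and 26.9% lower at 7 days. ITGA5 and ITGB1 encode the subunits of the fibronectin receptor α5β1. ITGA5 stood at 4799 and 4547 in SB, 27317 and 30528 at 3 days, and 39579 and 35111 at 7 days (log2 difference 3.00 at 7 days, adjusted p = 2.82e-10). ITGB1 was 1.41 higher at 7 days (adjusted p = 1.23e-07). ITGB3 and ITGB6 encode integrin chains that pair with αv to bind RGD-bearing ligands. ITGB6 rose from 13 and 22 in SB to 693 and 607 at 3 days and 1165 and 1374 at 7 days (log2 difference 6.14 at 7 days, adjusted p = 1.05e-09), and ITGB3 was 3.69 higher at 7 days (adjusted p = 2.27e-09). ITGB8 was the receptor gene that was lower at 3 days, at -2.47 (adjusted p = 7.15e-07), and at 7 days its difference from SB was 0.24 (adjusted p = 0.244). SDC4, ITGB5 and ITGB8 were the receptor genes tested that did not pass at 7 days. ITGA4, ITGA8, ITGA9 and CD36 stood between 0 and 4.

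**Figure D5:**
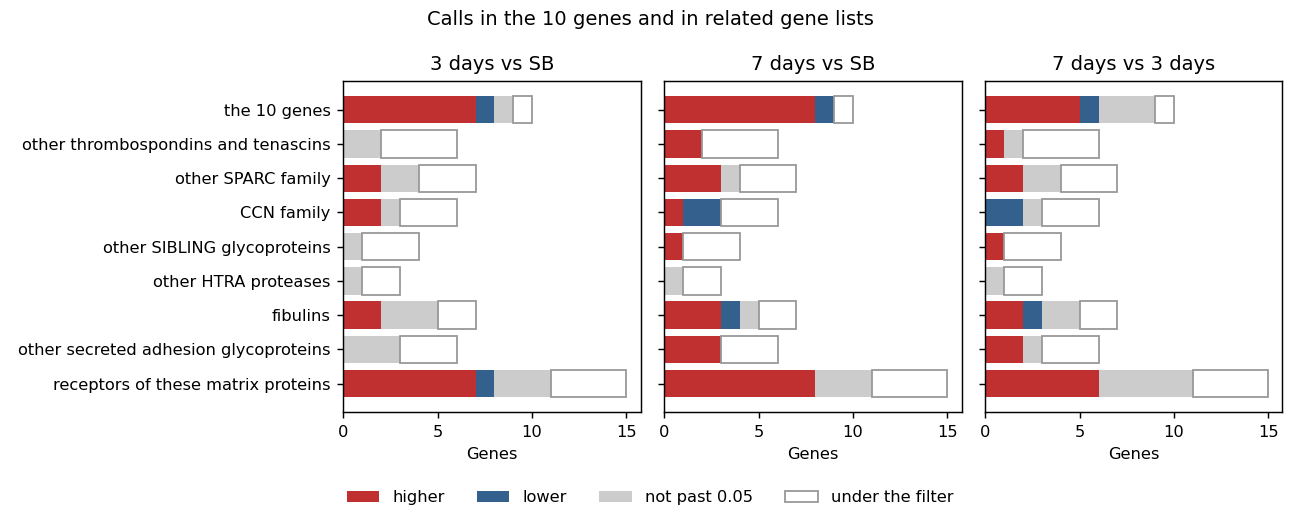
Number of genes (x axis) called higher (red), called lower (blue), not past an adjusted p of 0.05 (grey) and under the filter on low values (open) in the 10 genes and 8 related lists, for the 3 comparisons. The row of the 10 genes shows 7 higher and 1 lower at 3 days, and the CCN row changes from 2 higher at 3 days to 2 lower and 1 higher at 7 days.

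Genes with the profile most like each member were found by the Euclidean distance between log2 values centered over the 6 libraries, among the 11388 other genes averaging 100 or more. The 3 nearest to FN1 were CREB3L1 (distance 0.16), TTLL1 (0.17) and LOC101928710 (0.17). For TGFBI they were ADAM19 (0.31), LPAR5 (0.33) and SRPX (0.40). For THBS1, the early riser, they were SMAD7 (0.41), ADTRP (0.42) and MYH15 (0.51). HTRA1 lay closest to MIAT (0.14), then SERPINA5 (0.59) and CST1 (0.92). SPARC lay closest to PADI1 (0.40), GNG2 (0.44) and SLC37A2 (0.44), CTHRC1 to PPAPDC1A (0.13), TBC1D8B (0.23) and TMEM117 (0.24), and SPP1 to MBOAT2 (0.33), SMIM3 (0.34) and SEMA7A (0.40). For TNC, the falling member, CHAF1A (0.06), DNMT1 (0.08) and AHCY (0.08) were nearest. No member was among the 3 nearest genes of another member.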

How the data were processed

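H2087-LCC RNA was poly(A)-selected and sequenced as 50/50 paired reads from an unstranded kit (TruSeq RNA v2). The authors checked reads with FastQC 0.11.5, aligned them to hg19 with STAR, used HTSeq 0.6.1p1 to count unique reads per gene and scaled the counts by library size. The deposited values, recorded under the unit score, are these normalized counts rounded to whole numbers; the annotation release is not given in the sources used here, and the negative binomial test of the study needs read counts before normalization, so it was not used. The worth of 1 read was estimated from gaps and pile-ups among low values. It covers counting error only.

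Values were taken as log2(normalized count + 1). The 14395 of 21293 genes averaging 10 or more entered limma 3.58.1 (R 4.3.3), with group as the only term, 3 residual degrees of freedom and empirical Bayes with a trend; p-values were adjusted by Benjamini-Hochberg over all genes. The test was run on simulated data with known changes. The members and gene lists were chosen with earlier results of these data known. The named genes were all members, at most 4 genes per list past the threshold with the largest change at 7 days against SB, and the 3 nearest profiles; genes given only as values at or near 0, the receptor genes that did not pass, ITGB8 and HTRA2 were added after their values were seen. Transcript lengths and loci are from GENCODE v44 lifted to GRCh37, matched by symbol (17511 genes); promoters are RefSeq sequences on GRCh38.p14, and coordinates of these builds were not mixed. Alternatives were other pseudocounts, filters and scalings, no trend, 4 libraries only, a replicate block and each library left out. Figures were drawn with matplotlib 3.10.9.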

Additional observations from a re-analysis of the deposited data

Results flagged for a closer look

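The effect of TGFβ against SB differed between 7 days and 3 days in 6 members by the limma test of 7 days against 3 days, which is the difference of these effects because both use the same SB libraries. The difference on the log2 scale was 0.61 for FN1, 1.09 for TGFBI, 1.90 for SPARC, 1.05 for CTHRC1, 2.92 for HTRA1 and -0.41 for TNC. All 6 kept their direction relative to SB at both times, and the adjusted p-values ranged from 1.69e-07 (SPARC) to 0.00396 (TNC). Over all genes tested, 33.2% passed this test. With no SB library at 7 days, the longer TGFβ treatment and the longer culture cannot be told apart in these differences.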

How the results depend on the processing

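Under the alternatives, 50 of 50 counts of members called stayed within 1.5 times the reported count, and 437 of 447 log2 differences of single members kept their direction and their side of the threshold. The other 10 kept their direction: 6 lost a call (THBS2 at 7 days against SB in 5 settings and TNC between 7 days and 3 days in 1) and 4 gained one (SPP1 between 7 days and 3 days in 3 settings and THBS2 at 3 days in 1). With each library left out in turn, the number of members called was 8 to 9 at 3 days against SB, 8 to 9 at 7 days against SB and 5 to 7 between 7 days and 3 days. A log2 difference could not change with a replicate block, without the trend, with only the 4 libraries compared or with other filters. Nor could it change when a library outside the comparison was left out. A kept direction in those settings is therefore no test. With at most 10 members, the reported counts of 8 and 9 could pass the limit of 1.5 times only by losing calls. Other scalings moved the median of all genes by at most 0.06 (log2). With the replicate block, the numbers of members called were 8, 9 and 6, as without it, and genes called were 3943, 7546 and 4485 against 4170, 7851 and 4775. The libraries share only a number: the correlation of the differences between replicates was 0.21 for SB and 3 days, -0.13 for SB and 7 days and -0.65 for 3 days and 7 days. A crossed pairing, chosen after seeing the data, called 8763 and 5972 genes at 7 days against SB and against 3 days. POSTN could be compared only without the filter, and THBS2 not with a mean of at least 50. Depth limits POSTN and THBS2.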
